A study of Mus musculus with 9 samples.

Results

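The genes described here encode the nuclear subunits of the mitochondrial respiratory chain and of ATP synthase. They were chosen by gene symbol alone: symbols that begin with Nduf and then a, b, c, s or v and a digit (complex I, NADH dehydrogenase), Sdha to Sdhd (complex II, succinate dehydrogenase), Uqcr (complex III, cytochrome bc1), Cox and a digit from 4 to 8 (complex IV, cytochrome c oxidase) and Atp5 (complex V, ATP synthase), with symbols that end in -ps left out. The rule took 84 of 23238 gene symbols. By symbol alone, 37 were put in complex I, 4 in complex II, 8 in complex III, 18 in complex IV and 17 in complex V. Ndufa4 and Ndufa4l2 were thus counted with complex I for their symbols only, which does not place their proteins in that complex. When genes were named they were listed with the isoform pairs of complex IV, but Ndufa4 enters the sums and medians of complex I below. Of the 84 genes, 76 passed edgeR's expression filter and were tested, as were 10107 genes in all. Atp5s and Atp5sl were taken by the rule, although RefSeq now names them Dmac2l and Dmac2 and the latter is known as an assembly factor of complex I.

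The study used an NMO-like mouse model, in which IgG of patients with neuromyelitis optica (NMO-IgG) was injected with human complement into the striatum of 1 hemisphere of 12-week-old wild-type female C57BL/6N mice. QuantSeq 3ʹ libraries, which count reads at the 3ʹ end of polyadenylated transcripts, were made from monocytes sorted as CD45+CD11b+P2ry12-Ly6C+Ly6G- on day 1. The 3 groups were blood monocytes of untreated mice (Blood_Normal), blood monocytes of NMO mice (Blood_NMO) and monocytes from the brain of NMO mice (Brain_NMO), with 3 libraries a group, each from a pool of 5 mice. Blood cells were separated on a density gradient and brain cells were released from tissue before the sort, so tissue and preparation cannot be told apart, and the untreated mice received no control IgG or injection.

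Electrons from NADH and succinate enter the respiratory chain at complexes I and II, pass through complexes III and IV to oxygen, and drive the pumping of protons that complex V uses to make ATP. Most subunits are encoded in the nucleus, and a small core is encoded in mitochondrial DNA. Monocytes and macrophages are known to shift between oxidative phosphorylation and glycolysis with their state of activation. Values below are CPM, the counts of a gene relative to the size of its library, scaled with TMM library size factors, and since each transcript gives reads at its 3ʹ end only, no length correction was made. In sorted pools, fewer cells of a type and less RNA per cell cannot be told apart.

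The nuclear genes of the chain are spread over 19 chromosomes, and their promoters are known for binding sites of NRF1, of ETS factors such as GABP, of YY1 and of the estrogen-related receptors (ERR). RefSeq promoter windows (250 bases before to 50 bases after a gene's start, GRCm38.p6) were matched for 69 of the 84 genes. An NRF1 core (GCGCATGC or its reverse complement GCATGCGC) was present in 10 of them (14.5%) and in 3.05% of all 27025 genes with a window. For the ETS core (CCGGAAG or CTTCCGG) the numbers were 16 (23.2%) against 9.93%, and for the YY1 core (AAGATGGCG or CGCCATCTT) 8 (11.6%) against 1.64%. An ERR site (TCAAGGTCA or TGACCTTGA) was found for Atp5g3 and Sdhd only among the 69, or 2.90%, against 0.466% of all genes. The start used for Atp5g3 lies inside the span annotated for that gene. The NRF1 core and its reverse complement can overlap, and the ETS core can run into the YY1 core through the letters AAG. The median GC content of the windows was 57.3% for the chain and 52.7% for all, and a match of letters is a description, not a bound site.

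One stretch of 120 bases directly upstream of the gene's start is printed for each complex, to show what the shared letters look like in genes whose levels are described below. Capitals mark the match, and each stretch is written 5′ to 3′ on the gene's own strand. They lie at chr2:36049339-36049458 (minus strand, Ndufa8, NRF1), chr4:140961151-140961270 (plus strand, Sdhb, NRF1), chr4:116075071-116075190 (minus strand, Uqcrh, ETS), chr7:30626115-30626234 (minus strand, Cox6b1, ETS) and chr15:102671048-102671167 (minus strand, Atp5g2, NRF1 on both strands).
Ndufa8: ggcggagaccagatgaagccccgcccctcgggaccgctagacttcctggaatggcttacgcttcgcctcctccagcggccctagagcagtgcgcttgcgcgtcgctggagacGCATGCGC
Sdhb: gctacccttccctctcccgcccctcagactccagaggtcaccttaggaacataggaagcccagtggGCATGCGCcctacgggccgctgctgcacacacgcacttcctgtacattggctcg
Uqcrh: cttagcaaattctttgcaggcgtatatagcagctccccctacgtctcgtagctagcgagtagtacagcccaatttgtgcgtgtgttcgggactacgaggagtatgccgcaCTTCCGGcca
Cox6b1: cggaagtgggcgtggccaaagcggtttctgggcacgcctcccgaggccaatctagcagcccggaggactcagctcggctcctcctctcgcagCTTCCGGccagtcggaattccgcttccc
Atp5g2: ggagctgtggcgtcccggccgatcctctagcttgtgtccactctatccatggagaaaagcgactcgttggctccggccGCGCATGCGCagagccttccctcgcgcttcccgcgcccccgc

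Total counts ran from 7584649 to 10419647 a library, and the ribosomal RNA symbol Rn45s held 28.4% to 43.6% of them. The respiratory chain genes together held 0.428% to 0.679% of the counts. A count of 3, taken as the floor of a library, corresponded to 0.271 to 0.429 CPM. Such floors cover counting error only, since no molecular identifiers are described.

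1 library stood apart. Blood_NMO replicate 3 had counts for 4567 genes, against 6473 to 11556 in the other 8 libraries, and the largest TMM factor (1.46). In it 32 of the 76 genes tested had 3 counts or fewer, 21 of them in complex I. Brain_NMO replicate 2 had 12 such genes and the other 7 libraries 0 to 5. Among the 51 respiratory chain genes with a mean of at least 50 CPM over the other 8 libraries, 16 (31.4%) were at the floor in Blood_NMO replicate 3, and of 2952 genes of that level in general the share was 26.2%. The same shares in Brain_NMO replicate 2 were 6.38% and 12.3%. Counts and medians over the chain are therefore also given without these libraries. So are the fold changes against Blood_NMO of chain genes above all blood libraries in every brain library, without 1 or both.

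**Figure D1:**
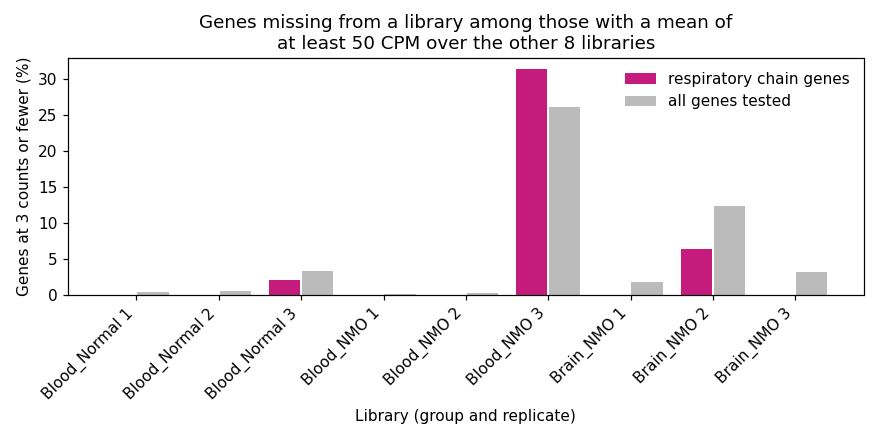
Percent of genes at 3 counts or fewer in each library (x axis), among genes with a mean of at least 50 CPM over the other 8 libraries, for respiratory chain genes (coloured bars) and all genes tested (grey bars). Blood_NMO replicate 3 reaches 31.4% and 26.2%, Brain_NMO replicate 2 reaches 6.38% and 12.3%, and the other libraries stay at or below 3.32%.

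Across the chain, no gene passed the test between groups. In edgeR's quasi-likelihood test, 0 of 76 genes passed an adjusted p of 0.05 for Brain_NMO against Blood_NMO, where 0.247% of all genes tested did. For Blood_NMO against Blood_Normal 0 of 76 passed, and 0% of all genes. For Brain_NMO against Blood_Normal 0 of 76 passed, against 0.247% of all genes. With the study's threshold of an unadjusted p under 0.05 and a fold change of 1.2, the counts were again 0 of 76 in each comparison, where 5.32%, 0.712% and 5.82% of all genes passed. DESeq2 and limma-voom called 0 of the 76 after adjustment as well. At the unadjusted threshold DESeq2 passed 0, 0 and 1 of them in the same order, beside 9.9%, 2.51% and 10.6% of all genes. Voom passed 1, 1 and 2, beside 12.8%, 4.89% and 11.7%.

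Over the chain, the median log2 fold change was 0.29 for Brain_NMO against Blood_NMO (54 of 76 genes above 0), beside 0.051 for all genes tested. It was -0.15 for Blood_NMO against Blood_Normal (31 above 0), beside -0.16 for all genes. For Brain_NMO against Blood_Normal it was 0.21 (47 above 0), beside -0.12. These 3 comparisons share libraries and are not independent. The first median moved with the libraries entered. Without Blood_NMO replicate 3 it was -0.060 (34 of 76 above 0), beside -0.16 for all genes. Without Brain_NMO replicate 1 it was 0.015 (38 above 0), beside -0.28 for all genes, and with Blood_NMO replicate 3 and Brain_NMO replicate 2 both left out it was 0.15 (43 above 0), beside -0.12. Without Blood_NMO replicate 3, the median of Blood_NMO against Blood_Normal was 0.15 (0.068 for all genes), and without Brain_NMO replicate 1 that of Brain_NMO against Blood_Normal was -0.14 (-0.40 for all genes). Voom with quality weights gave -0.096 for the first comparison, beside -0.67 for all genes, and 0.13 for the second, beside 0.17.

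The standard error of a gene's log2 fold change had a median of 1.38 between Brain_NMO and Blood_NMO, with a range of 0.46 to 3.77. In that comparison the 95% interval lay within a 2-fold change either way for 0 of 76 genes and within a 4-fold change for 10. For Blood_NMO against Blood_Normal the numbers were 0 and 15, and for Brain_NMO against Blood_Normal 0 and 10. No gene therefore had an interval narrow enough to leave out a 2-fold difference in both directions, and the absence of calls does not show equal levels. With both Blood_NMO replicate 3 and Brain_NMO replicate 2 left out, a setting chosen after seeing the data, adjusted calls stayed at 0. At the unadjusted threshold 1, 3 and 6 of 76 genes then passed in the 3 comparisons, where 6.75%, 1.31% and 9.61% of all genes did. The 6 for Brain_NMO against Blood_Normal were Atp5e, Cox6b1, Cox7a2l, Ndufa2, Ndufa8 and Ndufb11.

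**Figure D2:**
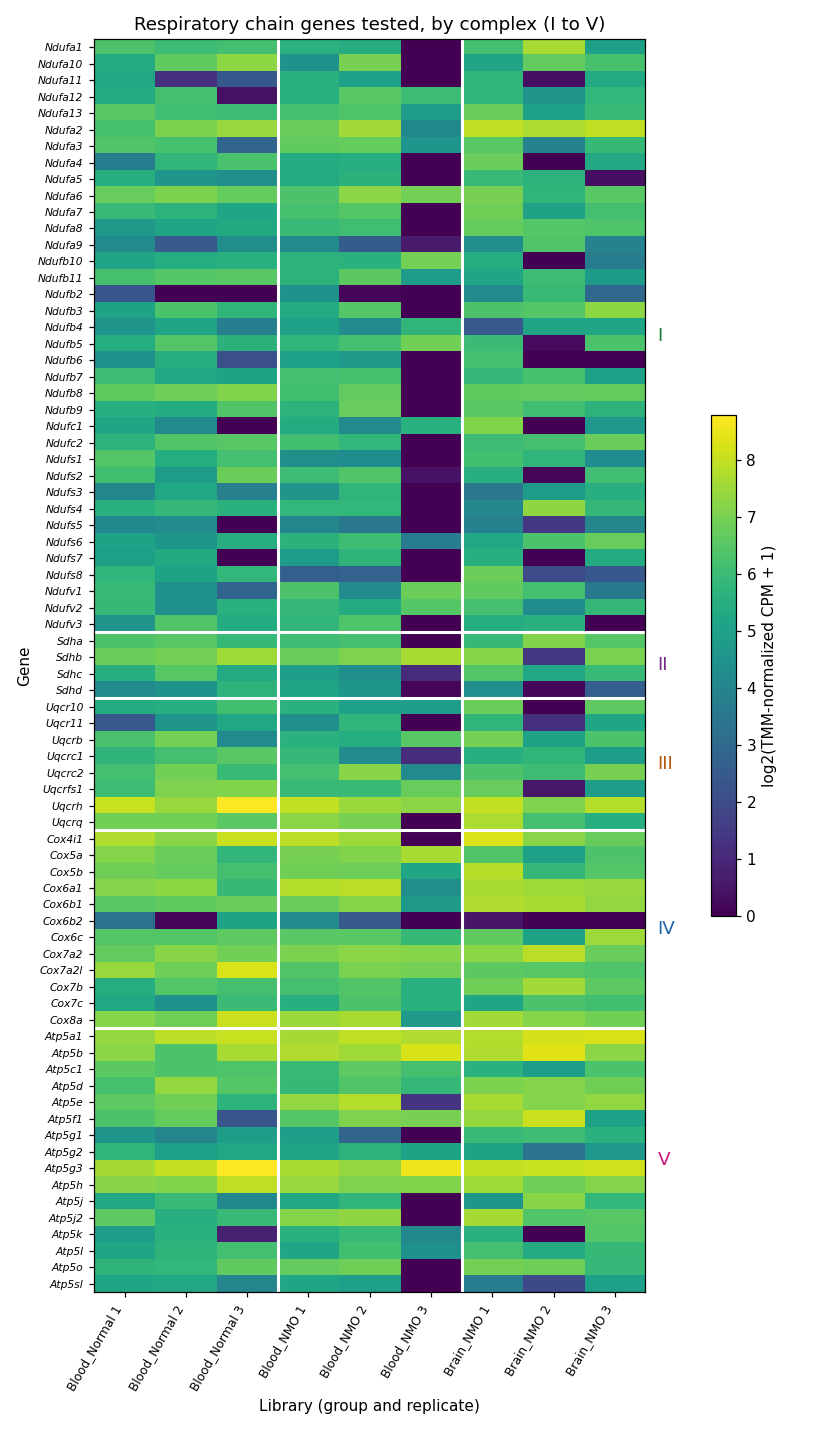
Level of the 76 respiratory chain genes tested, as log2(TMM-normalized CPM + 1), with 1 row a gene in the order of complexes I to V and 1 column a library in 3 groups of 3. The dark column of Blood_NMO replicate 3 holds 32 genes at 3 counts or fewer, and that of Brain_NMO replicate 2 holds 12.

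Groups without overlap were counted as well. Between Brain_NMO and Blood_NMO, 7 of 76 genes had all 3 Brain_NMO libraries above all 3 Blood_NMO libraries (6.3% of all genes tested did) and 2 had them below (6.05%). Blood_NMO lay above Blood_Normal for 1 gene (2.34% of all genes) and below it for 4 (4.45%). Brain_NMO lay above Blood_Normal for 9 genes (6.07%) and below for 3 (9.37%). For 5 genes, Ndufa2, Ndufa8, Cox6b1, Cox7b and Atp5g1, every Brain_NMO library was above all 6 blood libraries, which 3.57% of all genes tested showed. For 0 of 76 was every Brain_NMO library below them, against 3.13%. With Blood_NMO replicate 3 and Brain_NMO replicate 2 left out, fewer libraries had to separate. Then 12 genes were higher and 10 lower in Brain_NMO than in Blood_NMO (16.6% and 26.7% of all genes), 12 higher and 5 lower in Blood_NMO than in Blood_Normal (11.6% and 5.97%), and 14 higher and 4 lower in Brain_NMO than in Blood_Normal (13.1% each way). Against all blood libraries, 7 were higher and 1 lower in Brain_NMO (9.11% and 9.92%), and the 7 held the same 5 genes together with Cox6c and Uqcr10.

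Complex I takes electrons from NADH, and its subunits were measured at low to moderate level. Summed over its 37 genes, it stood at 1732, 1881 and 1804 CPM in Blood_Normal, 1791, 2250 and 837 CPM in Blood_NMO, and 2526, 1908 and 1924 CPM in Brain_NMO. The Brain_NMO sums were above those of Blood_Normal and overlapped those of Blood_NMO, whose replicate 3 was the lowest of the 9. The median log2 fold change of its 36 tested genes was 0.33 for Brain_NMO against Blood_NMO, -0.050 for Blood_NMO against Blood_Normal and 0.21 for Brain_NMO against Blood_Normal. With both libraries left out these medians were 0.17, 0.26 and 0.32.

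Ndufa2, an accessory subunit of the NADH-oxidizing arm, had the highest mean of the complex (155 CPM). It was measured at 73.5, 133 and 170 CPM in Blood_Normal, 111, 189 and 15.999 CPM in Blood_NMO and 249, 206 and 244 CPM in Brain_NMO. Every Brain_NMO library was higher than every blood library, and the log2 fold change against Blood_NMO was 1.14 (95% interval -0.48 to 2.77, edgeR adjusted p = 1). Without Blood_NMO replicate 3 the change of Ndufa2 was 0.65. Its exons overlap those of Tmco6 on the other strand, and since the counting is not stated to use strand, reads of the pair cannot be told apart.

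Ndufa8, an accessory subunit facing the intermembrane space, had 26.0, 35.1 and 39.8 CPM in Blood_Normal, 61.4, 68.1 and 0 CPM in Blood_NMO and 105, 88.2 and 81.7 CPM in Brain_NMO. Again the brain libraries were the 3 highest. The log2 fold change against Blood_Normal was 1.44 with a standard error of 1.54 (edgeR adjusted p = 1), so the gap between group means stayed within the error that the shared dispersion gives. Against Blood_NMO the change of Ndufa8 was 1.09, and 0.51 without Blood_NMO replicate 3. Ndufb3, an accessory subunit of the membrane arm, was at 80.4, 88.2 and 156 CPM in Brain_NMO and at 33.0, 76.9 and 52.5 CPM in Blood_Normal, without overlap, while Blood_NMO had 41.2, 88.4 and 0 CPM.

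The core subunits that carry flavin or iron-sulfur clusters varied without a shared direction. Ndufs8, one of those with such clusters, had 54.4, 32.9 and 56.0 CPM in Blood_Normal, 5.29, 5.84 and 0 CPM in Blood_NMO and 112, 3.03 and 4.35 CPM in Brain_NMO. All Blood_NMO libraries and 2 of the 3 Brain_NMO libraries were low, and 1 Brain_NMO library was the highest of all. The log2 fold change of Blood_NMO against Blood_Normal was -3.68 (standard error 2.13, edgeR adjusted p = 1, unadjusted p = 0.106, the smallest of the 76 in that comparison). Ndufs1, the largest subunit of the arm that oxidizes NADH, was also lower in all Blood_NMO libraries (19.1, 18.2 and 0 CPM) than in Blood_Normal (86.1, 42.0 and 70.7 CPM), with 69.6, 52.2 and 18.5 CPM in Brain_NMO. Ndufv1, which holds the NADH site, overlapped in every comparison, with 59.5, 20.2 and 6.20 CPM, then 79.0, 17.7 and 111 CPM, then 99.97, 70.8 and 10.8 CPM in the 3 groups.

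Ndufb10, a membrane arm subunit, went the other way from Ndufs1. It was at 33.8, 42.0 and 46.4 CPM in Blood_Normal, 50.8, 47.8 and 122 CPM in Blood_NMO and 42.8, 0 and 11.8 CPM in Brain_NMO, so Blood_NMO was above both other groups without overlap. Its fitted change of Brain_NMO against Blood_NMO was -2.01 on the log2 scale (95% interval -5.59 to 1.57), and -0.84 with both libraries left out. Ndufa1, a small membrane subunit encoded on the X chromosome, was lower in Blood_NMO (48.2, 43.2 and 0 CPM) than in Blood_Normal (79.7, 63.5 and 69.8 CPM), and ranged from 30.9 to 199.8 CPM in Brain_NMO. Ndufb11, also on the X chromosome, was at 74.8, 88.4 and 89.6 CPM in Blood_Normal and at 35.0, 64.5 and 26.7 CPM in Brain_NMO, without overlap.

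Among the most abundant accessory subunits, Ndufb8 had 99.7, 114 and 138 CPM in Blood_Normal, 68.4, 102 and 0 CPM in Blood_NMO and 99.6, 102 and 104 CPM in Brain_NMO. Its only value away from the others was the 0 counts of Blood_NMO replicate 3. Ndufa6 was captured in all 9 libraries at 53.2 to 151 CPM, with a coefficient of variation of 27.7%, and its log2 fold change was -0.38 (95% interval -1.84 to 1.08, -0.055 with both libraries left out) between Brain_NMO and Blood_NMO. Ndufa10 ranged from 0 to 157 CPM with wide overlap of all groups. Ndufb2, at the other extreme, had 4.15, 0 and 0 CPM in Blood_Normal, 21.4, 0.108 and 0 CPM in Blood_NMO and 16.9, 60.1 and 6.93 CPM in Brain_NMO, and its log2 fold change of Brain_NMO against Blood_Normal was 4.33 with a standard error of 3.42, and 3.11 without Brain_NMO replicate 2.

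Complex II links the tricarboxylic acid cycle to the chain and is the only complex with all of its subunits encoded in the nucleus. Its sum was 255, 325 and 336 CPM in Blood_Normal, 239, 253 and 202 CPM in Blood_NMO and 309, 177 and 283 CPM in Brain_NMO. Blood_NMO lay just under Blood_Normal, a separation that was lost without TMM factors. Sdhb, the iron-sulfur subunit, was the most abundant of the 4, with 112, 123 and 186 CPM, 110, 137 and 201 CPM, and 147, 1.70 and 130 CPM in Blood_Normal, Blood_NMO and Brain_NMO. Apart from the low value of Brain_NMO replicate 2, its groups covered the same range.

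Sdha, the flavoprotein that oxidizes succinate, was at 80.1, 90.9 and 58.3 CPM in Blood_Normal, 66.2, 72.6 and 0 CPM in Blood_NMO and 58.0, 139 and 87.4 CPM in Brain_NMO. Sdhc, one of the membrane anchors, had 45.3, 89.7 and 40.8 CPM, then 28.7, 19.6 and 1.08 CPM, then 85.7, 36.9 and 60.2 CPM. It was the only gene of the chain for which Blood_NMO was below both other groups without overlap, and its log2 fold change was 1.89 (95% interval -0.97 to 4.75) for Brain_NMO against Blood_NMO and -1.83 (-4.69 to 1.02) for Blood_NMO against Blood_Normal. Without Blood_NMO replicate 3 these values were 1.35 and -1.28. Sdhd, the other anchor, was low, at 16.9, 21.4 and 50.7 CPM, then 34.0, 23.6 and 0.0904 CPM, then 18.8, 0.0946 and 5.24 CPM. In edgeR's test all 4 genes had an adjusted p of 1 in all 3 comparisons. The median log2 fold change of complex II was 0.17, -0.68 and -0.27 for Brain_NMO against Blood_NMO, Blood_NMO against Blood_Normal and Brain_NMO against Blood_Normal, and 0.13, -0.16 and -0.029 with both libraries left out.

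**Figure D3:**
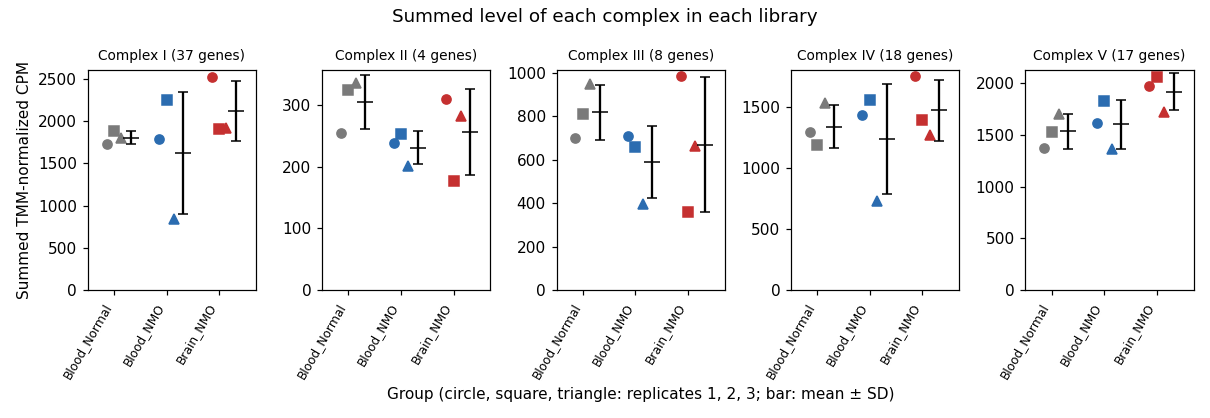
Summed TMM-normalized CPM of each complex (y axis, from 0) in each library, by group (x axis), with symbols for replicates 1, 2 and 3 and a bar for the group mean ± SD of 3 libraries. Blood_NMO replicate 3 has the lowest sum for complexes I, IV and V (837, 726 and 1359 CPM), and Brain_NMO replicate 2 the lowest for complexes II and III (177 and 360 CPM).

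Complex III passes electrons from ubiquinol to cytochrome c. It summed to 697, 807 and 949 CPM in Blood_Normal, 710, 657 and 398 CPM in Blood_NMO and 982, 360 and 662 CPM in Brain_NMO, and the groups overlapped. Uqcrh, the hinge subunit near the cytochrome c site, was among the 3 most abundant genes of the chain, with 266, 171 and 441 CPM, 253, 175 and 152 CPM, and 254, 136 and 223 CPM in Blood_Normal, Blood_NMO and Brain_NMO. It was captured in every library and its fold changes stayed close to their error, with -0.60 (95% interval -1.72 to 0.52) on the log2 scale for Blood_NMO against Blood_Normal and 0.08 (standard error 0.52) for Brain_NMO against Blood_NMO.

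Uqcrfs1, the Rieske iron-sulfur protein, had 65.7, 134 and 139 CPM in Blood_Normal, 61.8, 61.5 and 107 CPM in Blood_NMO and 106, 0.473 and 29.4 CPM in Brain_NMO. Its low values were those of 2 brain libraries. Uqcrq, a small structural subunit, was at 121, 121 and 93.0 CPM, then 153, 125 and 0 CPM, then 210, 72.3 and 46.1 CPM, with the highest value and the 0 both in NMO libraries. Uqcrc2, a core protein, ranged from 17.2 to 150 CPM with overlap throughout. Of the 8 genes, 7 had a fitted change above 0 for Brain_NMO against Blood_NMO and 1 for Blood_NMO against Blood_Normal, and the Blood_NMO libraries are shared by both counts. The medians in the order used for complex II were 0.26, -0.39 and 0.035, and with both libraries left out 0.16, -0.41 and 0.26.

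Complex IV reduces oxygen, and it has pairs of subunits of which one is made in most cells and the other in muscle, lung, testis or other restricted tissues. Its sum was 1294, 1189 and 1535 CPM in Blood_Normal, 1435, 1556 and 726 CPM in Blood_NMO and 1754, 1393 and 1269 CPM in Brain_NMO, with overlap. The median log2 fold changes of complex IV were 0.22, -0.11 and 0.29 in the same order of comparisons, and -0.17, 0.22 and 0.26 with both libraries left out. Cox4i1, the common form of the subunit that senses ATP, was measured at 214, 149 and 272 CPM, then 242, 180 and 0 CPM, then 320, 150 and 108 CPM. The 0 counts of Blood_NMO replicate 3 stood beside a mean of 204 CPM over the other 8 libraries, and the exons of Cox4i1 overlap those of Emc8 on the other strand.

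The common isoforms carried nearly all of the signal. Cox6a1 had 141, 155 and 57.8 CPM in Blood_Normal, 222, 233 and 19.4 CPM in Blood_NMO and 204, 185 and 170 CPM in Brain_NMO, and Brain_NMO was above Blood_Normal without overlap. Cox7a2 ranged from 100.4 to 232 CPM and Cox8a from 26.1 to 270 CPM over the 9 libraries, with overlap of all groups. By contrast Cox4i2, Cox7b2, Cox8b and Cox8c had 0 counts in all 9 libraries, as had Ndufa4l2 and Atp5s, and Cox7a1 had 4 counts in 1 library. Cox6a2, a heart and muscle isoform, had 167 counts in all, 164 of them in Brain_NMO replicate 1 (18.4 CPM).

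Cox6b1, which joins the monomers of the enzyme on its outer face, separated brain from blood. Its values were 89.7, 99.95 and 109 CPM in Blood_Normal, 113, 146 and 25.7 CPM in Blood_NMO and 214, 203 and 165 CPM in Brain_NMO. All brain libraries were above all blood libraries, with log2 fold changes of 1.03 (95% interval -0.46 to 2.53) against Blood_NMO and 0.96 (-0.53 to 2.45) against Blood_Normal, and in edgeR's test the adjusted p was 1 for both. Without Blood_NMO replicate 3 the change of Cox6b1 against Blood_NMO was 0.60. Its partner Cox6b2, known from testis, was at 8.73, 0.105 and 33.6 CPM, then 18.0, 4.65 and 0 CPM, then 0.450, 0 and 0 CPM. The low brain values of Cox6b2 overlapped those of both blood groups.

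Cox7b, encoded on the X chromosome, showed the same order as Cox6b1, with 42.2, 86.6 and 72.2 CPM in Blood_Normal, 72.1, 84.4 and 47.4 CPM in Blood_NMO and 116, 189 and 96.9 CPM in Brain_NMO. The log2 fold change was 0.98 (95% interval -0.66 to 2.62) against Blood_NMO and 1.00 (-0.64 to 2.64) against Blood_Normal. Cox7b was captured in every library, and with both libraries left out its changes were 0.46 and 0.68.

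Cox5a and Cox7a2l each lay lower in brain than in 1 of the blood groups. Cox5a, which binds near the matrix side of the catalytic core, had 143, 111 and 54.0 CPM in Blood_Normal, 124, 139 and 199.58 CPM in Blood_NMO and 84.5, 31.2 and 79.2 CPM in Brain_NMO. Brain_NMO was below Blood_NMO without overlap, and the log2 fold change of -1.25 (standard error 0.73) had an edgeR adjusted p of 0.891. Brain_NMO and Blood_Normal overlapped for Cox5a, and with both libraries left out its change against Blood_NMO was -0.67. Its unadjusted p of 0.110 was the smallest of the 76 in that comparison. Cox7a2l is known for a role in supercomplexes of complexes III and IV, which was not examined in these mice. It was at 170, 114 and 312 CPM, then 84.5, 130 and 123 CPM, then 94.3, 89.3 and 81.6 CPM. Brain_NMO was below Blood_Normal without overlap but not below Blood_NMO. The log2 fold change of Cox7a2l against Blood_Normal was -1.17 (standard error 0.63, edgeR adjusted p = 0.736, unadjusted p = 0.0836), the smallest p of the chain in any comparison. Without Blood_Normal replicate 3, the library at 312 CPM, the change was -0.67.

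Complex V makes ATP from the proton gradient, and held the most abundant and most even genes of the chain. It summed to 1369, 1528 and 1700 CPM in Blood_Normal, 1618, 1823 and 1359 CPM in Blood_NMO and 1974, 2056 and 1718 CPM in Brain_NMO. Brain_NMO lay just above Blood_Normal, and this separation too was lost without TMM factors. Complex V held 25.6% to 29.3% of the summed CPM of the chain in 7 libraries, but 38.6% in Blood_NMO replicate 3 and 34.9% in Brain_NMO replicate 2, the libraries with the most genes at the floor. Its median log2 fold changes were 0.29, -0.11 and 0.40, and with both libraries left out -0.097, 0.11 and 0.28, so those of the first 2 comparisons turned sign.

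Atp5a1 and Atp5b encode the alpha and beta subunits that form the catalytic head. Atp5a1 had 167, 238 and 262 CPM in Blood_Normal, 193, 247 and 213 CPM in Blood_NMO and 216, 295 and 303 CPM in Brain_NMO, and its coefficient of variation of 19.0% was the lowest of the 76 genes, against a median of 56.2%. Its log2 fold change of Brain_NMO against Blood_NMO was 0.32 with a 95% interval of -0.66 to 1.30, from the smallest standard error of the 76 genes. Atp5b was at 152, 78.4 and 200.04 CPM, then 213, 185 and 308 CPM, then 215, 333 and 152 CPM. The groups overlapped for both, and the exons of Atp5a1 overlap those of Haus1 on the other strand.

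The remaining subunits of the head and stalk differed in order between groups. Atp5d, the delta subunit of the central stalk, had 132, 141 and 117 CPM in Brain_NMO and 58.1, 84.6 and 57.1 CPM in Blood_NMO, without overlap, and 74.953, 166 and 87.3 CPM in Blood_Normal. Atp5e, the epsilon subunit of the same stalk, was at 96.6, 121 and 50.6 CPM in Blood_Normal, 164, 224 and 1.54 CPM in Blood_NMO and 196, 142 and 162 CPM in Brain_NMO. Brain_NMO was above Blood_Normal for Atp5e, as were the other two Blood_NMO libraries apart from replicate 3. Atp5c1, the gamma subunit that turns within the head, was lower in Brain_NMO (47.7, 29.6 and 78.5 CPM) than in Blood_Normal (94.978, 79.1 and 81.3 CPM), with 60.2, 96.7 and 72.7 CPM in Blood_NMO. The 3 subunits of the rotor stalk thus did not share an order.

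Atp5g1, Atp5g2 and Atp5g3 encode the same mature subunit c of the membrane ring and differ in their import sequence. Atp5g3 was the most abundant gene of the chain, with a mean of 271 CPM over all libraries and 195, 260 and 439 CPM, 204, 169 and 374 CPM, and 252, 263 and 283 CPM in Blood_Normal, Blood_NMO and Brain_NMO. Atp5g2 ranged from 9.08 to 53.2 CPM with overlap. Atp5g1 was at 22.7, 14.8 and 28.5 CPM, then 29.5, 6.28 and 0 CPM, then 61.3, 65.6 and 48.1 CPM. Every brain library was above every blood library for Atp5g1, with log2 fold changes of 2.29 (95% interval -1.76 to 6.33) against Blood_NMO and 1.40 (-2.53 to 5.34) against Blood_Normal, while Atp5g3, with the larger share of the reads, had a log2 fold change of 0.09 (-0.96 to 1.14) against Blood_NMO. Without Blood_NMO replicate 3 these changes against Blood_NMO were 1.71 for Atp5g1 and 0.52 for Atp5g3. Reads with several alignments were counted by the authors, so the split among these paralogs, and the values of any gene with near-identical copies, are uncertain.

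**Figure D4:**
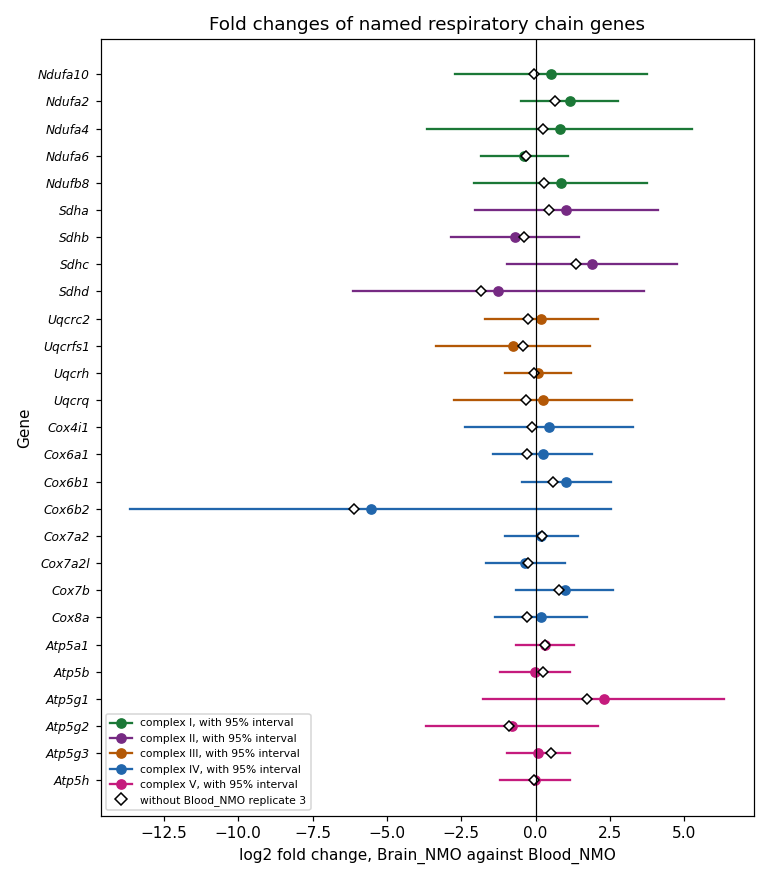
Fitted log2 fold change of Brain_NMO against Blood_NMO (x axis) for the 27 tested genes named by level, isoform pair or complex II (y axis), as filled circles coloured by complex with 95% intervals, and the value without Blood_NMO replicate 3 as open diamonds. Every interval crosses 0, and the diamonds of Cox4i1, Cox6a1 and several others lie on the other side of 0 from their circles.

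The spread among libraries of the chain was close to that of other genes of like level. The median coefficient of variation over the 9 libraries was 49.7% for the 48 respiratory chain genes with a mean of at least 50 CPM, and 52.6% for all 2905 genes of that level. Among all 76 genes tested, the largest spread was that of Ndufb2 (161%), and the smallest after Atp5a1 was that of Atp5h, a peripheral stalk subunit (24.9%, 114 to 247 CPM).

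The other genes of the pathway were read in the same fit. Among 41 assembly factors, 22 other carriers and subunits, 24 genes of the tricarboxylic acid cycle and pyruvate entry, 16 genes of mitochondrial biogenesis and 22 of mitochondrial import that were tested, edgeR called 0 after adjustment in any comparison. With an unadjusted p under 0.05, 1 assembly factor was lower in Brain_NMO than in each blood group and 1 import gene was higher in Brain_NMO than in Blood_NMO, where 5.32% of all genes passed against Blood_NMO and 5.82% against Blood_Normal. The former was Sdhaf4, an assembly factor of complex II, with 0 counts in all Brain_NMO libraries, 4.87, 12.6 and 51.7 CPM in Blood_NMO and 11.6, 6.10 and 0 CPM in Blood_Normal. The latter was Timm50, a part of the inner membrane translocase, with 28.7, 77.5 and 0.693 CPM in Brain_NMO and 0 counts in all Blood_NMO libraries. Both were low genes with values at the floor in several libraries. Of 26 symbols searched for the subunits encoded in mitochondrial DNA, 0 were in the deposited counts, so those subunits could not be analysed under these symbols.

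For Brain_NMO against Blood_NMO the median log2 fold change was 0.12 for assembly factors, 0.089 for the carriers, 0.13 for the tricarboxylic acid cycle, -0.32 for biogenesis and 0.30 for import, beside 0.051 for all genes tested. For Brain_NMO against Blood_Normal it was 0.081, -0.10, -0.18, -0.21 and 0.36 in the same order, beside -0.12. Biogenesis lay furthest below all genes in the first comparison and import furthest above them in both, with no call in either list. Mdh2, the malate dehydrogenase of the cycle, had 302, 270.4 and 265 CPM in Brain_NMO, 121, 104 and 0 CPM in Blood_NMO and 152, 140.3 and 62.9 CPM in Blood_Normal. Each brain library thus lay above all blood libraries for Mdh2. Its log2 fold change against Blood_NMO was 1.89 (standard error 1.32, edgeR adjusted p = 1). No value without Blood_NMO replicate 3, which held the 0, is given for Mdh2. Slc25a3, the phosphate carrier that feeds ATP synthase, was at 379, 595 and 543 CPM in Blood_Normal, 277, 361 and 301 CPM in Blood_NMO and 249, 419 and 343 CPM in Brain_NMO, with Blood_NMO below Blood_Normal in every library. Yy1, one of the factors whose motif was searched above, had 75.008, 26.1 and 119.6 CPM in Brain_NMO and 93.9, 93.0 and 268 CPM in Blood_NMO, with overlap.

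Summed markers of several other cell types differed between blood and brain libraries, and their part in the values above was not tested. The 11 monocyte markers summed to 4997 to 6412 CPM in Blood_Normal, 3605 to 6899 CPM in Blood_NMO and 4699 to 8147 CPM in Brain_NMO. In each group 0 of them were at 0 in all libraries, which alone does not establish the cell type. Single markers went different ways. Ly6c2 had 435, 59.1 and 198 CPM in Brain_NMO, below every blood library (460 to 928 CPM). Ccr2 had 1290, 781 and 1126 CPM in Brain_NMO, above every blood library (89.3 to 687 CPM). Of the NK and T cell list, 10 of 11 genes were in the files. They summed to 1882 to 2185, 2173 to 2596 and 59.9 to 344 CPM in Blood_Normal, Blood_NMO and Brain_NMO. The 8 platelet markers summed to 548 to 3303, 626 to 2757 and 29.4 to 54.2 CPM, and the 9 erythroid markers to 1299 to 5495, 2220 to 7212 and 1.42 to 462 CPM. Among the latter, Hbb-bs and Hbb-b1 had equal or near-equal values in each library, as had Hbb-bt and Hbb-b2. The erythroid sums may therefore hold the same reads more than once.

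In the other direction, the 10 microglial markers summed to 31.0 to 73.7 CPM in Blood_Normal, 0 to 52.7 CPM in Blood_NMO and 437 to 717 CPM in Brain_NMO, with 6, 5 and 0 of them at 0 in all libraries of a group. The 9 neutrophil markers summed to 61.5 to 267, 125 to 219 and 380 to 1746 CPM. Of these, 2, 1 and 2 were at 0 in all libraries of a group. The higher brain sums were not shared by all 9 markers. In Brain_NMO replicate 2, S100a8, S100a9 and Ngp were at 808, 656 and 243 CPM. Retnlg went the other way, with 124, 84.3 and 37.6 CPM in Blood_Normal and 0 CPM in all Brain_NMO libraries. Mmp9 was also at 0 CPM in Brain_NMO, and Cxcr2 stayed at or below 0.562 CPM in every library. The 11 brain cell markers summed to 5.59 to 125, 45.5 to 101.39 and 82.1 to 154 CPM, and these ranges overlapped. Pecam1 held much of some sums, with 77.1, 85.7 and 82.1 CPM in Blood_Normal replicate 1, Blood_NMO replicate 1 and Brain_NMO replicate 2. Slc1a2 (32.2, 0 and 7.82 CPM in Brain_NMO) and Cldn5 (32.8, 0 and 59.7 CPM) were at 0 in all blood libraries. Slc1a3 and Snap25 were at 0 in all Brain_NMO libraries and reached 11.2 and 5.30 CPM in blood. Mog and Aqp4 were at 0 in all 9 libraries. The B cell markers (5 of 6 in the files) reached at most 76.7 CPM, with Pax5 at 0, and their sums overlapped between groups as well. The 5 respiratory chain genes that were higher in every brain library than in every blood library were thus measured in libraries that also differed in several of these markers.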

How the data were processed

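QuantSeq 3ʹ libraries of sorted mouse monocytes were analysed in 3 groups of 3, each library from a pool of 5 mice. Groups and replicate numbers came from the sample titles. Bowtie2 alignments, both unique and multiple ones, were counted per gene with bedtools by the authors, who deposited the raw counts under gene symbols. The build is mm10 per the labels. Versions, annotation and use of strand are not given in the sources used here. The authors' later TMM and CPM normalization is not part of the deposited counts.

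Each file lists 23282 entries. For the 35 repeated symbols, of which 0 belong to the respiratory chain, only that with the highest total was used. In R 4.3.3 with edgeR 4.0.16, filterByExpr, TMM factors, glmQLFit and glmQLFTest were applied to all 9 libraries in a single fit with group as the only term, and p-values were adjusted over all genes tested (Benjamini-Hochberg). Standard errors were taken from the fitted change and its F statistic. CPM were computed with TMM-scaled library sizes. The common dispersion was 2.87, and p-values measure the spread between pools. The fit was also run on simulated counts, where a pass was required only at a dispersion far below that of these data. That run therefore does not show the power of the fit here.

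Genes named were complex II, the 4 with the highest mean CPM in each other complex, isoform pairs, subunit c genes, genes at 3 counts or fewer in a library with a mean of at least 50 CPM over the others, and up to 3 genes of highest mean CPM in each further list. Genes named for groups without overlap, for a small p or for their role in a core were chosen after their values were seen. The members, lists and rules were chosen with earlier results of these data known.

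Alternatives were RLE and TMMwsp factors, library sizes alone, Rn45s left out, no filter, a filter of 10 counts in every library, repeated symbols summed, a fit restricted to the libraries under comparison, the replicate block, each replicate left out, a robust fit, DESeq2 1.42.0 and limma-voom (limma 3.58.1) with quality weights. Leaving out Blood_NMO replicate 3 and Brain_NMO replicate 2 together was chosen after seeing the data. Gene positions and promoters were taken from RefSeq (GRCm38.p6, 81 genes matched by symbol, 3 by synonym). Exon overlaps came from GENCODE for the same build, in which 25 of the 84 genes shared exon bases with another protein-coding gene. Among genes described above, these include Ndufb2 (Gm42420) and Ndufb8 (Gm20538), with overlap on the same strand. Others are Ndufs1 (Eef1b2), Ndufb11 (Rbm10) and Atp5d (Cbarp), with overlap on the other strand.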

Additional observations from a re-analysis of the deposited data

How the results depend on the processing

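Adjusted calls among the respiratory chain genes stayed at 0 in all 3 comparisons under every alternative run. At the unadjusted threshold the count of 0 moved as follows, in the order Brain_NMO against Blood_NMO, Blood_NMO against Blood_Normal and Brain_NMO against Blood_Normal. With at least 10 counts in every library (35 genes tested) it was 2, 0 and 1, beside 11.6%, 1.5% and 11.7% of all genes, and with only the libraries compared 0, 0 and 2, beside 3.11%, 0.4% and 6.6%. It was 0, 0 and 1 with DESeq2, 1, 1 and 2 with limma-voom, and 1, 3 and 6 with both doubtful libraries left out, beside the shares of all genes given above. Leaving out each replicate in turn gave 0 to 1 in each comparison. Without Brain_NMO replicate 1, the 1 was Ndufb6 against Blood_NMO and against Blood_Normal, beside 5.5% and 5.95% of all genes. Without Blood_NMO replicate 3, it was Atp5e for Blood_NMO against Blood_Normal, beside 1.09% of all genes. The cause of these shifts was not tested.

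With the replicate block the counts were 0, 0 and 1 (Ndufb2), beside 3.64%, 0.297% and 3.78% of all genes. Deviations of libraries with the same number correlated at -0.010 to 0.12 between groups, above 0.1 in 1 of 9 pairs, so the numbers were not taken to pair the samples. The median log2 fold change of the chain under the block was 0.47, -0.28 and 0.15.

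Over all genes tested, adjusted calls for Brain_NMO against Blood_NMO numbered 25 in the reported fit, 7 with only the libraries compared, 110 without a filter, 51 with limma-voom, 324 with DESeq2 and 61 with both libraries left out. The common dispersion was 2.87, and total counts ran from 7584649 to 10419647.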
